A study of Mus musculus with 3 samples.

Results

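The cytosolic ribosomal protein genes encode the proteins that, with the ribosomal RNAs, build the large (60S) and small (40S) subunits of the ribosome. Members were taken by name, as protein-coding RefSeq genes whose symbol is Rpl or Rps, a number and at most 1 letter, or Rplp0, Rplp1, Rplp2 or Rpsa. This gave 81 genes of the 21883 protein-coding genes on the autosomes, X and Y, 50 of the large subunit and 31 of the small subunit. The rule uses names alone. CUT&Tag, in which an antibody brings a transposase to a chromatin protein so that nearby DNA is tagged and sequenced, was run on LSK cells sorted from mouse bone marrow. LSK (lineage-negative, Sca-1+, Kit+) cells include the stem cells of blood and the first progenitors they give rise to. All 3 libraries belong to 1 group, taken from knock-in mice in which a 3xFlag tag was added to the N-terminal end of Bcl11a, a transcriptional repressor with zinc fingers; the genotype label of each reads wildtype, age is not labelled, and nothing ties the libraries to separate animals. No library without the tag was used here, so a peak is an enrichment over the rest of its own library, and tagged protein and chromatin cut without it cannot be told apart.

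As background, every growing cell needs the ribosomal proteins in balanced amounts, and their genes are among the most strongly and evenly transcribed in mammals. Most have short genes with a compact promoter, and transcription typically starts at a C within a run of pyrimidines, the TOP sequence through which mTOR controls translation of the mRNA. Loss of 1 copy of several of these genes causes Diamond-Blackfan anaemia in people, a failure of red cell formation, so blood progenitors are known to be sensitive to their dose.

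Peaks numbered 38731, 36459 and 43462 in libraries 1, 2 and 3, and the background coverage solved from them was 1.07, 1.41 and 1.95 fragments per base, so library 1 was the shallowest. Peaks of the libraries that overlapped were joined, and the 22987 regions with a peak of all 3 are called reproducible. A gene is called occupied when such a region came within 1 kb of either outer end of its annotation. Among marker genes, ends were occupied for Kit, Cd34 and Flt3 of 6 LSK markers (50%, where 45.2% of all protein-coding genes were occupied), for 0 of 7 markers of mature lineages and for 0 of 4 markers of other tissues, so the LSK markers were near the share of all genes, and a peak at a gene end does not measure expression. Single libraries had a peak at Ly6a (library 2), Cd3e (library 3) and Col1a1 (library 3), while Slamf1 and Ptprc had none.

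Ribosomal protein genes were occupied far more often than other genes, but not more strongly. A reproducible region lay at an end of 67 of the 81 members (82.7%), where 45.2% of all protein-coding genes had one. In library 1, 67 members (82.7%) had a peak at an end, against 50% of all protein-coding genes. Library 2 had a peak at 72 members (88.9%), against 52.5% of all, and library 3 likewise at 72 (88.9%), against 53.9%. The share of members minus the share of other protein-coding genes was 32.9, 36.6 and 35.1 percentage points in libraries 1, 2 and 3, a mean of 34.8 ± 1.85 (SD, n = 3). All 3 libraries showed this direction, and the exact two-sided sign-flip permutation test gave p = 0.25, the smallest that 3 libraries allow.

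Short genes in general did not show this. Members had a median length of 3175 bp, where all protein-coding genes had 17170 bp. Of 68 members shorter than 5 kb, 56 were occupied (82.4%), while 1290 of 4966 other protein-coding genes of that length were (26.0%). Processed copies of the ribosomal protein genes, which are scattered through the genome as pseudogenes, were bare: 0 of 317 annotated pseudogenes named after a member had a reproducible region at an end, where 244 of 10429 pseudogenes of all kinds did (2.34%). How reads that match several of these near-identical copies were treated is not stated.

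**Figure D1:**
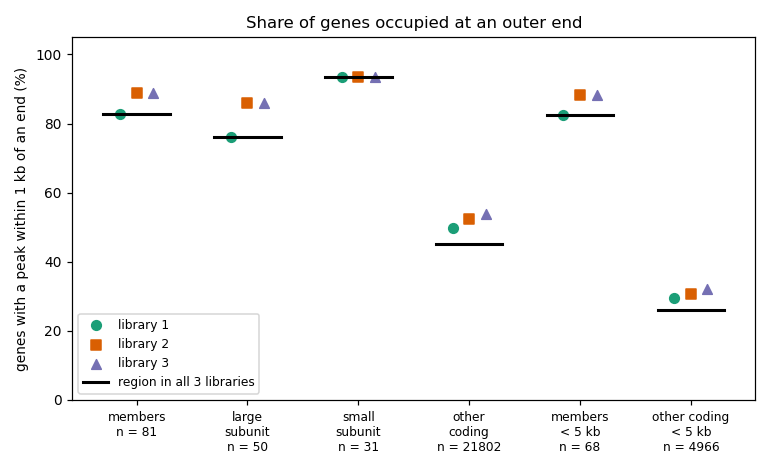
Share of genes with a peak within 1 kb of an outer end, in percent, for the ribosomal protein genes, each subunit and other protein-coding genes, and for genes shorter than 5 kb. Points are libraries and black bars the share with a reproducible region; members lie between 82.7% and 88.9% in single libraries, and other protein-coding genes between 49.8% and 53.8%.

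The strength of the signal at occupied members was that of an ordinary occupied gene. Strength is the authors' fold enrichment, the summit pileup over the local background. The 67 occupied members had mean fold enrichments from 3.12 to 16.2 with a median of 7.21, where all occupied protein-coding genes had a median of 7.41. Of the 67, 31 lay above that median and 16 above the upper quartile. By summit pileup over the library background, 35 lay above the median and 15 above the upper quartile. In bulk libraries, more cells with a bound site and more signal per cell cannot be told apart. In libraries 1, 2 and 3 the median fold enrichment of members was 7.38, 7.38 and 6.93, and that of other occupied genes was 7.38, 7.66 and 7.15. Members minus others came to -0.033 ± 0.028 on the log2 scale (SD, n = 3; exact sign-flip permutation p = 0.25), and to -0.019 ± 0.067 by pileup over background (SD, n = 3; exact permutation p = 1.0). The members kept much of their order between libraries: over the 67, Spearman's rho of fold enrichment between pairs of libraries was 0.741 to 0.825, and that of pileup 0.806 to 0.849. These are given as a description, as members within a library share its depth.

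Rpl27, a large subunit gene mutated in Diamond-Blackfan anaemia, carried the strongest region of the family. Its fold enrichment was 17.2, 16.4 and 15.1 in libraries 1, 2 and 3, 16.2 ± 1.04 on average (SD, n = 3), on summit pileups of 115, 141 and 156 fragments. That pileup was 96.0 ± 14.2 times the library background (SD, n = 3), higher than at any other member. Rps23, which encodes a protein of the decoding centre, followed with 14.4, 15.6 and 14.8, a mean of 14.9 ± 0.62 (SD, n = 3), on pileups of 40, 54 and 62. Fold enrichment thus put Rps23 close to Rpl27 while its pileup was less than that of Rpl27 in every library. Rps29, another gene of Diamond-Blackfan anaemia, had 17.4, 13.1 and 12.6, with library 1 above the others and a mean of 14.4 ± 2.68 (SD, n = 3). Rps27l, a paralogue of Rps27 known as a p53 target, had 12.7, 11.9 and 12.2, a mean of 12.3 ± 0.41 (SD, n = 3).

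Below these 4 genes the values ran together. Rpl4 had a mean fold enrichment of 11.6 ± 1.28, Rpl15 11.4 ± 1.02, Rpl21 11.4 ± 2.29, Rps25 10.6 ± 0.15, Rpl39 10.5 ± 1.5 and Rps14 10.5 ± 1.17 (SD, n = 3 each), and neighbours in this order did not differ beyond their spread. Rps25 encodes a protein needed for initiation at some internal ribosome entry sites, and Rps14 is the ribosomal protein gene lost in the 5q- syndrome. By the SD of log2 fold enrichment, Rps25 was the steadiest of the 10, at 10.5, 10.8 and 10.5 (SD of log2 0.02), and Rpl21 the least steady, at 8.76, 12.4 and 13.0 (0.31).

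The promoters of the following genes, picked by hand, are printed as examples and do not stand for all occupied or bare members. Each line gives 100 bases before the annotated start and 20 from it, read from RefSeq on GRCm38.p6, the assembly behind mm10; the start is base 101. Capitals mark a run of at least 8 pyrimidines at the start or within 10 bases of it and any CCGGAAG on either strand. CCGGAAG is bound by ETS factors such as GABP and is called the ETS core here. Rpl27 was the strongest member. Rpl15 and Rps25 were among the 10 strongest and carry both features. Rpl28, Rps4x and Rpl10l had no peak of any library at an end.
Rpl27, chr11:101442145-101442264, plus strand: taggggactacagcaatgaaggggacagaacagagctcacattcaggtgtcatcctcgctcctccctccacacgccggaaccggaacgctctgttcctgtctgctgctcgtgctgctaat
Rpl15, chr14:18270967-18271086, minus strand: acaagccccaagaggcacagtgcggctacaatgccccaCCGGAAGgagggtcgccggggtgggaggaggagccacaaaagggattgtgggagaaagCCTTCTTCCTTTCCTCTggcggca
Rps25, chr9:44407614-44407733, plus strand: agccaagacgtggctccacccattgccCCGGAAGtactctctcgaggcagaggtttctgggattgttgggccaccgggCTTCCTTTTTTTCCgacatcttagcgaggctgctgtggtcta
Rpl28, chr7:4792865-4792984, plus strand: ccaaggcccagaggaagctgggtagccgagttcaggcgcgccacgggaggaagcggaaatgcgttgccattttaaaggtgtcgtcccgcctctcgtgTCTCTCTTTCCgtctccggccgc
Rps4x, chrX:102189372-102189491, minus strand: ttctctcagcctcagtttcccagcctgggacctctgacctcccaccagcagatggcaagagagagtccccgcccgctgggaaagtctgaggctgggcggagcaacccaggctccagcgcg
Rpl10l, chr12:66284382-66284501, minus strand: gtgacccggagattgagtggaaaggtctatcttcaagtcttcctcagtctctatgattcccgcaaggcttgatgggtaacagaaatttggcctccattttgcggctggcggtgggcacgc

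In these 6 stretches, Rpl15 has a run of 17 pyrimidines and Rpl28 one of 11 across the start, while that of Rps25, of 14, ends before the start. Rpl27, the gene with the highest signal, has neither feature in the stretch shown, and Rpl28 has a long run and no peak. The ETS core, as the exact string CCGGAAG, is in Rpl15 and Rps25 and in none of the 3 genes shown without a peak. The shorter GGAA within it is in all 6 stretches, so a stretch without the core may still hold related strings. As the genes were picked, this compares no groups. Rpl6 and Rpl39l, which were not occupied at a start, have the core in a wider window.

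**Figure D2:**
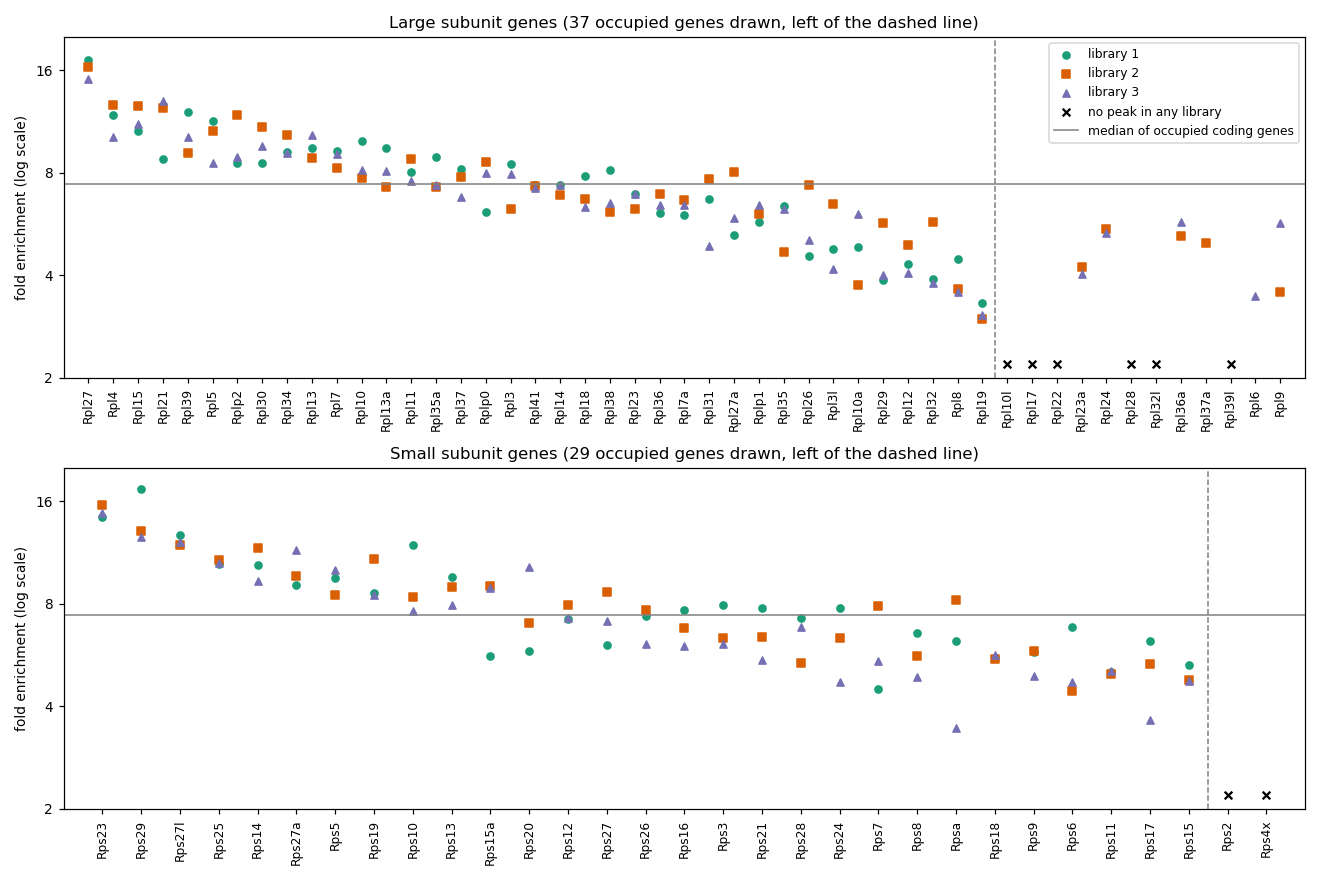
Fold enrichment (log scale) of each ribosomal protein gene in each library at the strongest reproducible region at an end, ordered by mean; 1 occupied large subunit gene is not drawn, and right of the dashed lines are members without a reproducible region, with any single-library peaks. Grey lines mark the median of all occupied protein-coding genes, 7.41; Rpl27 leads the large subunit at 15.1 to 17.2 and Rps23 the small subunit at 14.4 to 15.6.

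The weakest occupied members described here were of the large subunit. Rpl12 had fold enrichments of 4.32, 4.92 and 4.06, Rpl32 3.91, 5.74 and 3.78, Rpl8 4.45, 3.64 and 3.58, and Rpl19 3.32, 2.98 and 3.05 in libraries 1, 2 and 3. Their summit pileups ran from 11 to 36 fragments over these genes and libraries. For Rpl19 the value came from the region near the outer end of its longest annotated form. The listed start of a shorter form, inside the gene, had a reproducible region of 7.74, 8.23 and 8.79, a mean of 8.25 ± 0.53 (SD, n = 3), so Rpl19 was weak at its outer end alone.

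A few members changed rank from library to library. Rpsa, which encodes the laminin receptor protein of the small subunit, varied most, with 6.24, 8.24 and 3.46 and an SD of 0.64 on the log2 scale. Rps20 had 5.80, 7.03 and 10.3 (SD of log2 0.42) and Rps7 4.48, 7.87 and 5.43 (0.41). All 3 genes had a peak in every library, and the highest value was in library 2 for Rpsa and Rps7 and in library 3 for Rps20.

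The small subunit was occupied more completely than the large subunit. A reproducible region lay at 29 of 31 small subunit genes (93.5%) and at 38 of 50 large subunit genes (76.0%). In single libraries the large subunit had 38, 43 and 43 genes with a peak at an end (76.0%, 86.0% and 86.0%), and the small subunit had 29 in each (93.5%). Large minus small was -17.5, -7.55 and -7.55 percentage points, a mean of -10.9 ± 5.77 (SD, n = 3; exact sign-flip permutation p = 0.25, the smallest possible). Library 1, the shallowest, set much of the size. Without library 1 the mean difference was -7.55, and the joined counts were 42 of 50 large and 29 of 31 small subunit genes. Without the paralogues known from particular tissues, the counts were 37 of 47 and 28 of 30. The mean difference over single libraries was then -7.52 ± 6.14 percentage points (SD, n = 3), smaller than with them.

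Among occupied genes the subunits had like strength. The median fold enrichment of large subunit genes was 7.61, 7.30 and 7.06 in libraries 1, 2 and 3, and that of small subunit genes 7.35, 7.87 and 6.83. The difference on the log2 scale was 0.05, -0.11 and 0.05, with a mean of -0.003 ± 0.091 (SD, n = 3; exact permutation p = 1.0). By pileup over background it was 0.045 ± 0.136 (SD, n = 3; exact permutation p = 0.75). The sign turned between libraries and between measures.

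The 14 members without a reproducible region fell into 2 kinds. Of these, 8 had no peak of any library at an end: Rpl10l, Rpl17, Rpl22, Rpl28, Rpl32l, Rpl39l, Rps2 and Rps4x. The other 6 had a peak in at least 1 library, and library 1 had none of them. Rpl9 had fold enrichments of 3.58 and 5.68 in libraries 2 and 3, Rpl23a 4.22 and 4.04, Rpl24 5.46 and 5.33, and Rpl36a 5.23 and 5.74. Rpl37a had a peak in library 2 alone (4.99) and Rpl6 in library 3 alone (3.47). Whether the lower depth of library 1 accounts for its missing peaks was not tested.

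Several of the 8 genes without a peak at an end had one nearby. Rpl22, a large subunit gene needed for T cell development, and Rps2, a small subunit gene near the mRNA entry channel, each have a listed start inside the annotated gene, and both starts were occupied. The region at the internal start of Rpl22 had 6.01, 10.6 and 6.35, a mean of 7.66 ± 2.57 (SD, n = 3). That of Rps2 had 8.46, 7.76 and 5.05, a mean of 7.09 ± 1.80 (SD, n = 3). Rpl17 had a region inside the gene 1558 bp from its end, with 4.03, 3.28 and 4.24. The nearest region to Rpl28 lay 1417 bp from an end. With a 3 kb window 74 members were occupied, since Rpl17, Rpl22, Rpl23a, Rpl24, Rpl28, Rpl36a and Rps2 then had a region.

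The remaining 7 members had no reproducible region within 3 kb. The distance from an end to the nearest one was 10311 bp for Rpl32l, 10656 bp for Rpl6, 27436 bp for Rps4x, 44095 bp for Rpl9, 93481 bp for Rpl39l, 154915 bp for Rpl37a and 774765 bp for Rpl10l. Rps4x, the X-linked gene of a small subunit protein, was the only small subunit gene of this kind. Of the 4 members on X, Rpl10 (9.95, 7.73 and 8.15) and Rpl39 (12.1, 9.14 and 10.2) were occupied and Rps4x and Rpl36a were not. Over all protein-coding genes of X, 18.5% were occupied.

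The paralogues known from particular tissues or states divided by gene. Rpl10l and Rpl39l, the testis forms that stand in for X-linked Rpl10 and Rpl39 during male meiosis, had no peak of any library, while Rpl10 and Rpl39 were both occupied. Rpl3l, the form of striated muscle, counted as occupied with 4.77, 6.45 and 4.17, but the region lay past its 3′ end and was shared with the neighbouring gene Msrb1. Its start had no reproducible region. Rps27l was occupied at its start. Rps4l, another such paralogue, was not matched in the gene table.

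Where the strand was known, the occupied end was nearly always the start of the gene, as it was for protein-coding genes in general. A RefSeq table of promoters listed a start for 61 of the 81 members. A reproducible region lay within 1 kb of a listed start in 50 of them (82.0%), where 46.9% of the 17491 protein-coding genes with a listed start had one. By subunit these were 28 of 38 large (73.7%) and 22 of 23 small subunit genes (95.7%), the exception being Rps4x. Of 49 members occupied at an outer end with known strand, 39 had a region at the 5′ end alone, 9 at both ends and 1, Rpl3l, at the 3′ end alone. Over all protein-coding genes, 8025 were so occupied, with 6963 at the 5′ end alone, 715 at both and 347 at the 3′ end alone. Many members are short enough for 1 region to come within 1 kb of both ends.

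Summits sat close to the start. In 45 of the 50 members (90%) the summit, averaged over the libraries, was within 250 bp of a listed start, where 76.0% of all 8201 genes occupied at a start had it so close. The median position was -33.2 bp over members (negative is upstream), 7.17 bp for large and -104 bp for small subunit genes. In single libraries the medians of the large subunit were -29, -34 and 51 bp and those of the small subunit -80, -103.5 and -110 bp. The small subunit median lay further upstream in all 3 libraries, and no test was run on it. From the lowest to the highest library, the summit of a gene moved by a median of 132 bp in large and 144.5 bp in small subunit genes. The summit at Rpl27 was 5, 5 and 8 bp upstream of the start in libraries 1, 2 and 3. Averages can hide summits on both sides of the start. Those at Rpl14 averaged 1.33 bp but lay at 90, -163 and 77 bp, and those at Rps7 lay at -181, 258 and 290 bp. The 5 members outside 250 bp were Rpl7a (-274 bp), Rpl13a (-355 bp), Rps25 (-361 bp), Rps19 (-385 bp) and Rpl41 (1431 bp downstream, past its own 3′ end in a region shared with Zc3h10).

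**Figure D3:**
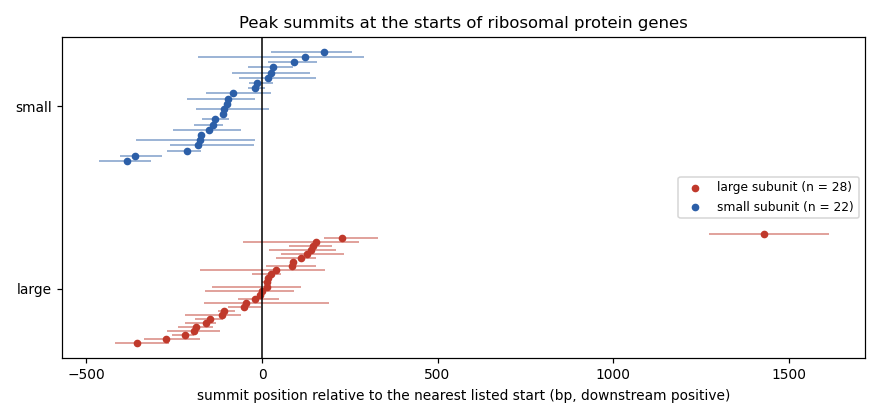
Summit position relative to the nearest listed start in bp, for the 50 ribosomal protein genes occupied at a start. Points are means over the 3 libraries and lines run from the lowest to the highest library; 45 points lie within 250 bp of the start, and Rpl41 stands at 1431 bp.

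In 5 members the strongest region at an outer end was another than that at the start. Rpl4, whose 3′ end lies beside Snapc5, had 11.6 ± 1.28 at that end and 7.65 ± 1.09 at its start (SD, n = 3). Rps9 had 5.50 ± 0.50 at its 3′ end and 3.96 ± 0.50 at its start, and Rps18 5.57 ± 0.08 beside B3galt4 and 4.90 ± 1.35 at its start (SD, n = 3). Rpl18 had 6.96 ± 0.78 at its outer end and 5.59 ± 0.81 at its listed start (SD, n = 3). Rpl19, described above, is the fifth. Of the 67 occupied members, 18 (26.9%) had their strongest region within 1 kb of another protein-coding gene's end, where 29.4% of all occupied genes did. Nkiras1 at Rpl15, Trappc4 at Rps25 and Pidd1 at Rplp2 are such neighbours, and a shared region cannot be given to either gene.

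Start windows of ribosomal protein genes differed in letters from those of other genes. Each window ran from 250 bases before to 50 after the start, and 12 motifs were searched on both strands. The ETS core CCGGAAG was in 24 of 61 members (39.3%), against 11.9% of all protein-coding genes and 19.2% of those occupied at a start. It was in 22 of 50 members occupied at a start (44%) and in 2 of 11 not occupied there. TGACGT, part of the element bound by CREB and ATF factors, was in 12 members (19.7%), against 8.76% and 13.1%. AAGATGG, bound by YY1, was in 8 (13.1%), against 6.37% and 7.11%. GGGCGG, the GC box bound by Sp and Klf factors, was in 35 (57.4%), above all genes (46.3%) and below the occupied ones (69.0%). CCAAT, bound by NF-Y, was in 19 (31.1%), against 39.0% and 39.5%.

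TGACCA, the motif through which BCL11A binds the gamma globin promoters, was no more common in members than elsewhere. It was in 5 of 61 (8.2%), namely Rpl6, Rpl19, Rpl32l, Rps15a and Rps28, against 12.5% of all protein-coding genes and 11.2% of those occupied at a start. Of these 5, Rpl19, Rps15a and Rps28 were occupied at a start and Rpl6 and Rpl32l were not. AGATAA, bound by GATA factors, was in 0 of 50 members occupied at a start and in 4 of 11 members not occupied there (Rpl3l, Rpl24, Rpl36a and Rps4x), against 9.96% of all protein-coding genes and 5.47% of those occupied at a start. TGTGGT, bound by RUNX factors, was in 5 members (8.2%), against 15.1% of all. GCGCATGC (NRF1), TATAAA (TBP), CACGTG (Myc and Max) and GAGGAAGT (PU.1) were in 2, 6, 5 and 3 members (3.28%, 9.84%, 8.2% and 4.92%). Over all protein-coding genes these shares were 3.6%, 13.3%, 7.9% and 3.17%. A match is a string of letters, not a measured site.

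The pyrimidine run at the start showed the widest gap from all genes among the features searched. A run of at least 8 pyrimidines touched or lay within 10 bases of the start in 27 of 61 members (44.3%), against 13.3% of all protein-coding genes and 13.1% of those occupied at a start. The start base was C in 20 members (32.8%), against 13.7% of all. Large and small subunit genes had the run at like shares, 16 of 38 (42.1%) and 11 of 23 (47.8%). It was in 25 of 50 members occupied at a start and in 2 of 11 not occupied there, Rpl28 and Rpl32l. Annotated starts can miss the true first base, so these counts describe the annotation. The occupied members had a median of 21.5 CpG in the window and the unoccupied ones 13, the same order as in all protein-coding genes, with 22 among those occupied at a start and 13 over all.

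**Figure D4:**
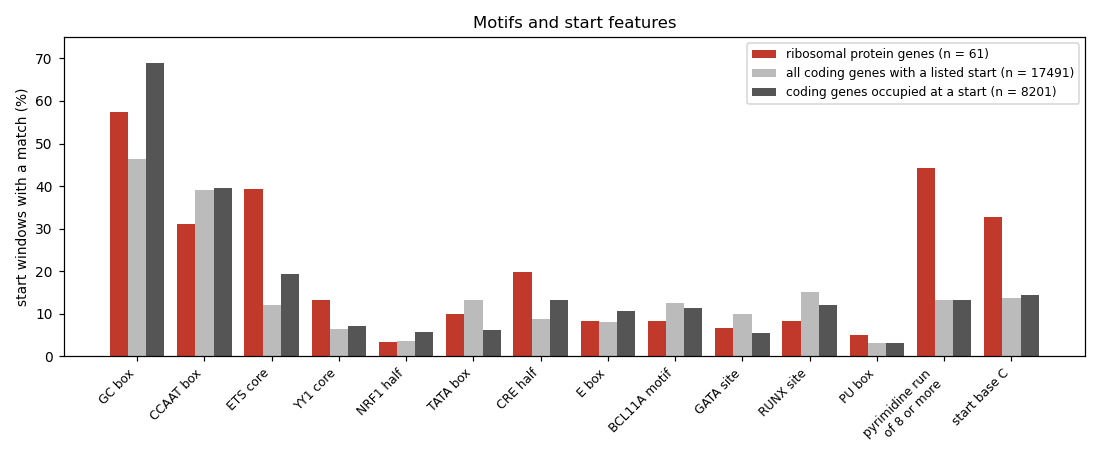
Share of start windows, in percent, with each searched motif, with a run of at least 8 pyrimidines at the start and with C as the start base, for ribosomal protein genes, all protein-coding genes with a listed start and those occupied at a start. The ETS core (39.3% against 11.9% of all) and the pyrimidine run (44.3% against 13.3%) show the widest gaps above all genes.

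All 19 members on the list used here for Diamond-Blackfan anaemia were occupied, where 67 of all 81 members were, led by Rpl27, Rps29 and Rpl15. The list was chosen with earlier results of these data known and may not hold every gene tied to that anaemia. None of the 14 unoccupied members is on it, so its full count depends on which genes were listed. Rps19, the gene most often mutated in that anaemia, had 8.58, 10.8 and 8.51, a mean of 9.31 ± 1.32 (SD, n = 3). The list had a median fold enrichment of 7.28, close to that of all members. Rpl5 (10.2 ± 1.45) and Rpl11 (8.12 ± 0.63; SD, n = 3 each), which form the 5S particle that restrains Mdm2, were both occupied. All 3 stalk genes were, with Rplp2 at 9.76 ± 1.78, Rplp0 at 7.59 ± 1.29 and Rplp1 at 6.07 ± 0.36 (SD, n = 3). Rps27a, whose protein is made as a fusion to ubiquitin, stood at 10.1 ± 1.28 (SD, n = 3).

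Other genes of the ribosome pathway were occupied in most cases, where 45.2% of all protein-coding genes were. The 7 ribosomal or ribosome-associated genes that the name rule leaves out were all occupied. They were led by Rpl22l1, the paralogue of Rpl22, at 10 ± 1.12 and Rpl36al at 8.10 ± 0.87 (region shared with Mgat2; SD, n = 3). Of 30 genes of ribosome assembly, 27 were (90%). They were led by Gnl3, a nucleolar GTPase of stem cells, at 15.0 ± 0.33 (region shared with Pbrm1) and Wdr12 at 13.0 ± 0.90 (shared with Carf; SD, n = 3). Of 17 genes whose mRNAs carry the TOP sequence outside the ribosome, 16 were (94.1%). They were led by Tpt1 at 14.3 ± 0.85 and Hnrnpa1 at 11.5 ± 0.94 (region shared with Cbx5; SD, n = 3). RNA polymerase I and its factors had 9 of 12 (75%), led by Polr1b at 13.3 ± 1.06 and Ttf1 at 11.5 ± 1.54 (SD, n = 3). Members that host snoRNA genes in their introns were occupied in 25 of 29 cases (86.2%) and the rest in 42 of 52 (80.8%).

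Away from their ends, members had more regions than protein-coding genes in general, and most of the gap came with regions at the ends of neighbouring genes. Reproducible regions inside a member or within 20 kb of it, but not at its ends, numbered 1.79 per member against 1.20 over all protein-coding genes. At least 1 such region was found for 62 of 81 members (76.5%), where 52.1% of all protein-coding genes had one. Of the 145 pairings of a member with such a region, 79 (54.5%) had the region at the end of another protein-coding gene, against 37.2% over all genes. Without those at other gene ends, 0.815 per member and 0.754 per protein-coding gene remained. Of the 145 pairings, 5 had the region inside the member, in Rpl17, Rpl18, Rpl19, Rpl22 and Rps2. Over all protein-coding genes 8009 of 26273 pairings had it inside the gene. A member of the median length, 3175 bp, has little room between the 1 kb windows at its ends. Large and small subunit genes had 1.90 and 1.61 farther regions each.

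Rpl10a, Rpl29 and Rps15 had the most, with 5 each, and 12 members followed with 4, among them Rpl28 and Rps2, which had none at an outer end. Near Rpl10a the strongest lay at the end of Fance, a Fanconi anaemia gene, with 6.82 ± 0.88 (SD, n = 3), above the 4.88 ± 1.16 at the end of Rpl10a itself. Near Rpl29 it lay at Acy1 with 9.02 ± 0.21, where Rpl29 had 4.53 ± 1.01 (SD, n = 3). Near Rps15 no region passed 5.52 ± 0.13, and Rps15 had 4.94 ± 0.31 (SD, n = 3). By contrast, 19 members had no farther region, among them Rps23, Rps27l, Rpl4 and Rpl15, which were among the 10 strongest at an end.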

How the data were processed

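CUT&Tag of Flag-tagged Bcl11a was measured in 3 LSK libraries of 1 group. Per the submitters' processing notes, the tools were Bowtie2, SAMtools and MACS2 (no versions) and the build mm10. Removal of duplicates is not given in the sources used. Each deposited file lists the peaks of 1 library with a score (not used), a fold enrichment (ratio), −log10 p, −log10 q and summit. All deposited peaks had −log10 q of at least 1.30, the q threshold of 0.05. Summit pileups were solved from the authors' fold enrichment and −log10 p with a Poisson tail, and 100% were whole within 0.05. Fold enrichment is the authors' own value; its log2 served for ranks and for the differences between groups of genes.

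Genes came from RefSeq tables of GRCm38.p6 (outer ends for all, starts for 61 members). Peaks overlapping by 1 bp were joined; a gene's value is its strongest end region in each library. Differences used 1 value per library and an exact sign-flip permutation test over 3 libraries, which cannot fall below 0.25; the spread between libraries may be technical. Members and lists were chosen with earlier results of these data known, and the pyrimidine run after seeing the data. Named are the 10 strongest and 5 weakest occupied members, all unoccupied ones, the 3 most variable, the 5 with most farther regions (with ties), all tissue paralogues, and the strongest genes of each list; the rest were named after their values were seen, as examples. Steps were tested on simulated data and run in Python 3.11.15 with pandas 2.3.3 and scipy 1.17.1. The results of 2 genes are not reported here. Alternatives changed the window, q, overlap, number of libraries, measure and gene set.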

Additional observations from a re-analysis of the deposited data

How the results depend on the processing

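The 67 occupied members became 64 with a 250 bp window, 74 with 3 kb, 57 with −log10 q of at least 5, 54 with 50% reciprocal overlap and 71 in at least 2 of 3 libraries; leaving out 1 library gave 67 to 71. With each library's 10000 strongest peaks the count fell to 28, with 17 large and 11 small subunit genes, as fewer peaks entered. Members stayed above other protein-coding genes by 20 to 37.6 percentage points under every alternative run (34.0 to 35.8 without 1 library). The large stayed below the small subunit by a difference between -22.6 and -6.11 (-12.5 to -7.55 without 1 library). These ranges mix 2 measures. Joined regions were used with 50% reciprocal overlap (-22.6) and in at least 2 libraries (-9.55), and means of single-library shares in most others. With the 10000 strongest peaks the mean of single libraries was -10.0. By joined regions that setting had like shares, 17 of 50 large and 11 of 31 small subunit genes. A comparison of joined regions at the main setting, chosen after seeing the data, gave 37.6 and -17.5. The median log2 fold enrichment of large minus small subunit genes, -0.003, changed sign under most settings: 0.05 with 250 bp, 0.019 with 3 kb, 0.10 at listed starts, 0.022 with the stricter q, 0.057 without the tissue paralogues, 0.045 by pileup, 0.13 by −log10 q, 0.057 without shared regions, and -0.092 to 0.049 without 1 library. That of members minus others, -0.033, turned to 0.009 in at least 2 libraries and 0.022 without shared regions, and ranged from -0.024 to -0.004 without 1 library. The cause was not tested. Farther regions per member, 1.79, were 0.444 with a 5 kb flank, 3.88 with 50 kb and 0.815 without regions at other gene ends, by construction, and 1.83 to 2.03 without 1 library. No paired comparison of conditions was possible because there is 1 group, and the tests paired groups of genes within each library. The 3 libraries limit every test.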
